A study of Mus musculus with 12 samples.

Results

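Signalling from Ras to the kinase ERK is described here through 10 genes that start it or hold it back, in mouse thymocytes at 3 successive stages before CD4 and CD8 appear. The genes were chosen by symbol: 2 exchange factors that load Ras with GTP (Rasgrp1 and Sos1), 2 inhibitors of the Ras to ERK route (Spry1 and Spred1) and 6 dual-specificity phosphatases that remove phosphate from MAP kinases (Dusp1, Dusp2, Dusp4, Dusp5, Dusp6 and Dusp10). All probe sets annotated with 1 of these symbols were taken, 25 of the 45101 on the array. All 10 genes passed the filter on dim signals, as did 11174 of the 18193 genes with a probe set of their own.

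The cells were double negative (DN) thymocytes of female C57BL/6 mice 5 to 6 weeks old, and the labels name no treatment and no genetic change. Magnetic columns removed CD4+ and CD8+ cells first. The gate then left out whatever bound antibodies to the gamma-delta T cell receptor, NK1.1, CD3, CD8 or CD4. Cells with CD44 and CD25 were taken as DN2, those with CD25 alone as DN3 and those with neither as DN4. Thymuses of 4 mice were pooled for each sort, and the 4 independent sorts used 16 mice. Each sort yielded a DN2, a DN3 and a DN4 sample, hybridised to 12 Affymetrix Mouse Genome 430 2.0 arrays, so that the 4 arrays of a stage come from separate mice and arrays of the same sort number share their cells. The comparisons ask how the members differed between DN2 and DN3, where T-lineage commitment falls, between DN3 and DN4, across beta-selection, and between DN2 and DN4.

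In thymocytes, Ras is loaded with GTP by exchange factors downstream of the pre-T cell receptor and of cytokine receptors, and it activates the kinases Raf, MEK and ERK in turn. Sprouty and Spred proteins dampen this route near the membrane, while dual-specificity phosphatases dephosphorylate ERK, p38 or JNK, each with its own preference and its own place in the cell. Many of these phosphatase genes are themselves induced by MAP kinase activity and so act as negative feedback, and ERK activity is known to be needed at beta-selection.

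Values are probe set signals after quantile normalization between arrays. Differences are given on the scale of log2(signal + 5.59), which understates the change of dim genes, with the standard error from limma fitted to all genes and n = 4 arrays per stage. A difference was called at a Benjamini-Hochberg adjusted p under 0.05 over all genes tested, and only called differences are described as rises or falls. Signals of different probe sets are not on a common scale, so no member's level is set against another's. In bulk samples such as these, fewer cells that express a gene and less RNA per cell cannot be told apart.

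The sort markers matched the labels: the normalized signal of Cd44 was 419 to 1042 in DN2 and at most 67.4 in DN3 and DN4, and that of Il2ra, which encodes CD25, was at least 1135 in DN2 and DN3 and at most 165 in DN4. Rag1 was highest in DN3, at 4028 to 5131. Deposited signals differed in scale between arrays, with trimmed means of 129 to 233. Without normalization the median difference of all genes tested was -0.41 on the log2 scale between DN4 and DN3 and -0.29 between DN4 and DN2. Along the third principal component, sorts 1 and 2 lay apart from sorts 3 and 4 in every stage, so values within these pairs of sorts are given where the call depends on them.

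Between DN2 and DN3, 4 members rose (Spry1, Dusp1, Dusp4 and Dusp10) and 1 fell (Dusp2) by limma, against 11.2% of all genes tested called in either direction, 4.75% higher and 6.47% lower. Between DN3 and DN4, Dusp10 was the 1 member that rose and 0 fell, against 16.2% of all genes called, 7.16% higher and 9.03% lower. At an unadjusted limma p under 0.05, 1 member (Dusp6) was lower in that comparison, and 4 were higher and 2 lower in DN3 against DN2. The share of all genes at that threshold was not counted. On signals without normalization, where the median of all genes shifted down as given above, Dusp6 and Spred1 were called lower in DN4 than in DN3 (limma adjusted p = 0.0118 and 0.0493). There 25.7% of all genes were called, 40 genes higher and 2837 lower. Between DN2 and DN4, 4 members were higher and 3 lower (Spred1, Dusp2 and Dusp6), where 34.6% of all genes were called, 17.9% higher and 16.7% lower. The median difference of the 10 members lay near 0 in each of these comparisons, at 0.02, -0.05 and 0.08 on the log2 scale, beside 0.02, 0.05 and 0.06 for all genes tested.

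**Figure D1:**
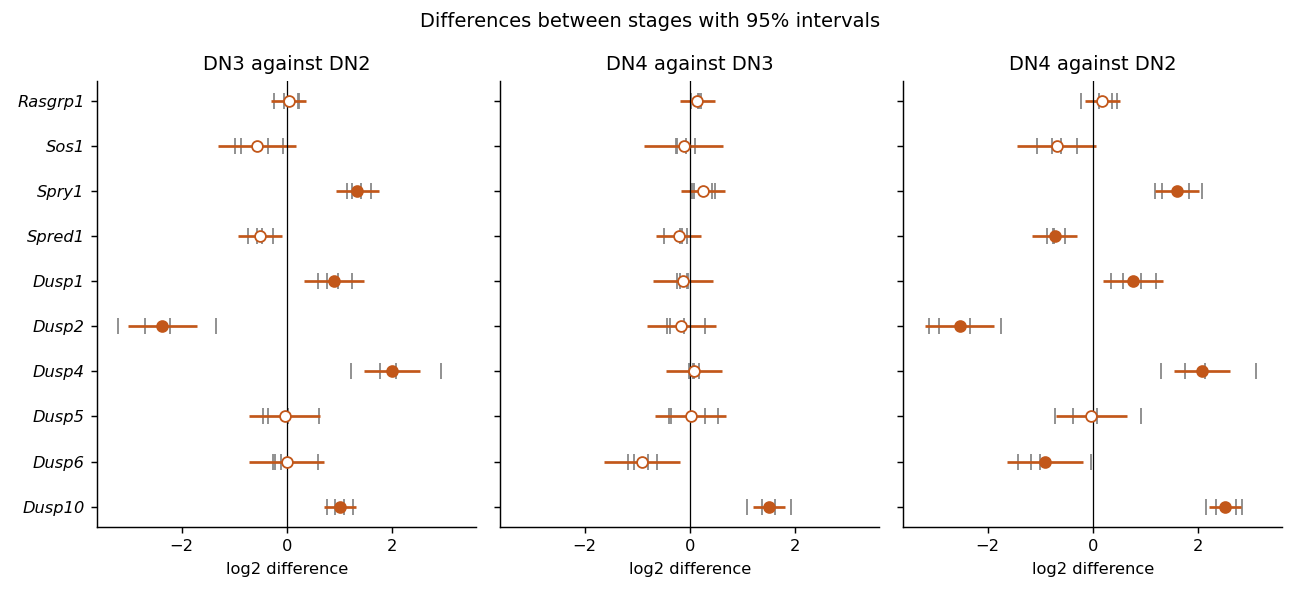
Difference of each member on the log2 scale in DN3 against DN2, DN4 against DN3 and DN4 against DN2, with its 95% interval from limma and grey ticks for the 4 sorts; filled points were called at an adjusted p under 0.05. Spry1, Dusp1, Dusp4 and Dusp10 lie to the right and Dusp2 to the left in the first comparison, and Dusp10 is the filled point in the middle one.

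Fitting the sort as a block, as the shared cell source allows, added calls and removed none. With the block, Spred1 and Sos1 were also lower in DN3 than in DN2 (adjusted p = 0.00773 and 0.0288), making 3 members lower, and Dusp6 was lower in DN4 than in DN3 (adjusted p = 0.0101). Sos1 was also lower in DN4 than in DN2 (adjusted p = 0.00556). The share of all genes called with the block was 20.9% for DN3 against DN2, 30.2% for DN4 against DN3 and 46.8% for DN4 against DN2, up from 11.2%, 16.2% and 34.6%, so the added members stand among many added genes.

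The bases just upstream are printed for Dusp1, Dusp2, Dusp10 and Spry1, 4 of the 5 members called between DN2 and DN3 (the other being Dusp4), and for Dusp5 as a member with no detected stage difference. Each run is the 250 bases before the annotated start of the RefSeq gene, in the direction of transcription, on build GRCm38.p6. Of the motifs searched on both strands, capitals mark these: the GC box GGGCGG, the cAMP response element TGACGTCA with its shorter core TGACGT, the E-box core CACGTG, and the CArG box.
Dusp1, chr17:26508473-26508722, minus strand: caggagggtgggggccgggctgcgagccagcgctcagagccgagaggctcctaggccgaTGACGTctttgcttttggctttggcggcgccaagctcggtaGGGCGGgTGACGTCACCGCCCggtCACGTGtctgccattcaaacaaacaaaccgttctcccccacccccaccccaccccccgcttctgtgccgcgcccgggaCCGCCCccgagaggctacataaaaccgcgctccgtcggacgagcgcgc
Dusp2, chr2:127335909-127336158, plus strand: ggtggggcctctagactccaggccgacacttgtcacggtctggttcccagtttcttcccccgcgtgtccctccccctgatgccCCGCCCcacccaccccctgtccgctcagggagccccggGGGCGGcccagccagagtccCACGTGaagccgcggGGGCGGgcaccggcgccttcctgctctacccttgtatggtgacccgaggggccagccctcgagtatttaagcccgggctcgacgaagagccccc
Dusp5, chr19:53528895-53529144, plus strand: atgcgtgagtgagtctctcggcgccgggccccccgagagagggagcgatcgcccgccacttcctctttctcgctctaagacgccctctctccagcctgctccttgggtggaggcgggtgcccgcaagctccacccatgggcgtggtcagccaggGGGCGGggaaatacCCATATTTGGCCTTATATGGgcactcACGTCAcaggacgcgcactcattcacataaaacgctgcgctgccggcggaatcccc
Dusp10, chr1:184034131-184034380, plus strand: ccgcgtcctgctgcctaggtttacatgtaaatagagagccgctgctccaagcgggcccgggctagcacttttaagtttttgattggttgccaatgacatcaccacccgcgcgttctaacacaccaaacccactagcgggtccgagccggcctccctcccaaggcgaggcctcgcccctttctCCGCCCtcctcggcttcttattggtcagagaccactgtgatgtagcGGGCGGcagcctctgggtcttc
Spry1, chr3:37639697-37639946, plus strand: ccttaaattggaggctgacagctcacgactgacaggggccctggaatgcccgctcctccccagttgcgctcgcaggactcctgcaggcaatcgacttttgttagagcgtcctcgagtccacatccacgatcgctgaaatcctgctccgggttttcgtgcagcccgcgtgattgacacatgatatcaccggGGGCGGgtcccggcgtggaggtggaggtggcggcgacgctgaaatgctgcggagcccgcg
Dusp1 held the full cAMP response element, 143 to 136 bases before the start, with a GC box on either side of it, and a separate copy of the shorter core 191 to 186 bases before the start. The full element contains the shorter core on both strands, and in the printed run it touches the GC box that follows.
The full element was present in 1.55% and the shorter core in 6.47% of the 32851 promoters searched, and the core also stood in Dusp5. Dusp5 held 2 CArG boxes end to end, 82 to 63 bases before the start, a motif in 1.47% of all promoters. The CACGTG core stood in Dusp1 and Dusp2, and in 6.02% of all promoters. The GC box stood in 7 of the 9 members searched, and in 32.7% of all promoters. The members' promoters were 56.4% to 70.8% G and C against a median of 52.4% for all promoters. Other motifs searched were the Runx motif TGTGGT, found in Sos1 and in 14.0% of all promoters, and 5 found in no member: the ETS motif CCGGAAGT (2.88% of all promoters), the EGR motif GCGTGGGCG (0.536%), the AP-1 motif TGANTCA (6.75%), the E-box CAGCTG (13%) and the TATA box TATAAA (12.4%). These are matches of letters in a short window and show no binding, and no site was measured in these cells.

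The exchange factors showed no called difference at their brightest probe sets. Rasgrp1, which is recruited by diacylglycerol and is the main Ras exchange factor downstream of antigen receptors in thymocytes, gave signals of 333, 550.0, 483 and 371 in sorts 1 to 4 of DN2, 392, 462, 466 and 432 in DN3, and 457, 469, 526 and 482 in DN4. The stages overlapped, and the spread was widest in DN2. DN4 differed from DN2 by 0.18 ± 0.15 on the log2 scale (limma adjusted p = 0.386), with a 95% interval from -0.15 to 0.51, so a change of either sign within these bounds is not separated from none. The other 3 Rasgrp1 probe sets were dim, with signals of 9.62 to 39.5. One of them, 1450143_at, was higher in DN4 than in DN2 by 0.59 ± 0.18 when every probe set was tested by itself (limma adjusted p = 0.0282). Its signals were 15.7 to 18.3 in DN2 and 18.1 to 37.0 in DN4. All its DN2 arrays lay below the filter level of 20.2, so it entered the test through the later stages, and this difference is given as a description only.

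Sos1, the exchange factor that the adaptor Grb2 carries to activated receptors, varied mainly with the sort. Its signals were 172, 485, 304 and 202 in DN2, 134, 262, 151 and 192 in DN3, and 111, 279, 144 and 162 in DN4. The values of sort 2 were the highest of each stage and the stages overlapped, but within each sort the DN2 array was the highest. The sort accounted for 63.1% of its sum of squares over the arrays and the stage for 28.7%, where the medians over all genes tested were 27.3% and 42.0%. DN4 was lower than DN2 by -0.69 ± 0.34 (limma adjusted p = 0.141), which passed with the block, as given above. The other Sos1 probe set bright enough to test, 1421884_at, differed by 0.05 ± 0.38 between DN4 and DN2 (adjusted p = 0.94 when every probe set was tested), so the 2 probe sets of this gene did not show a shared difference.

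**Figure D2:**
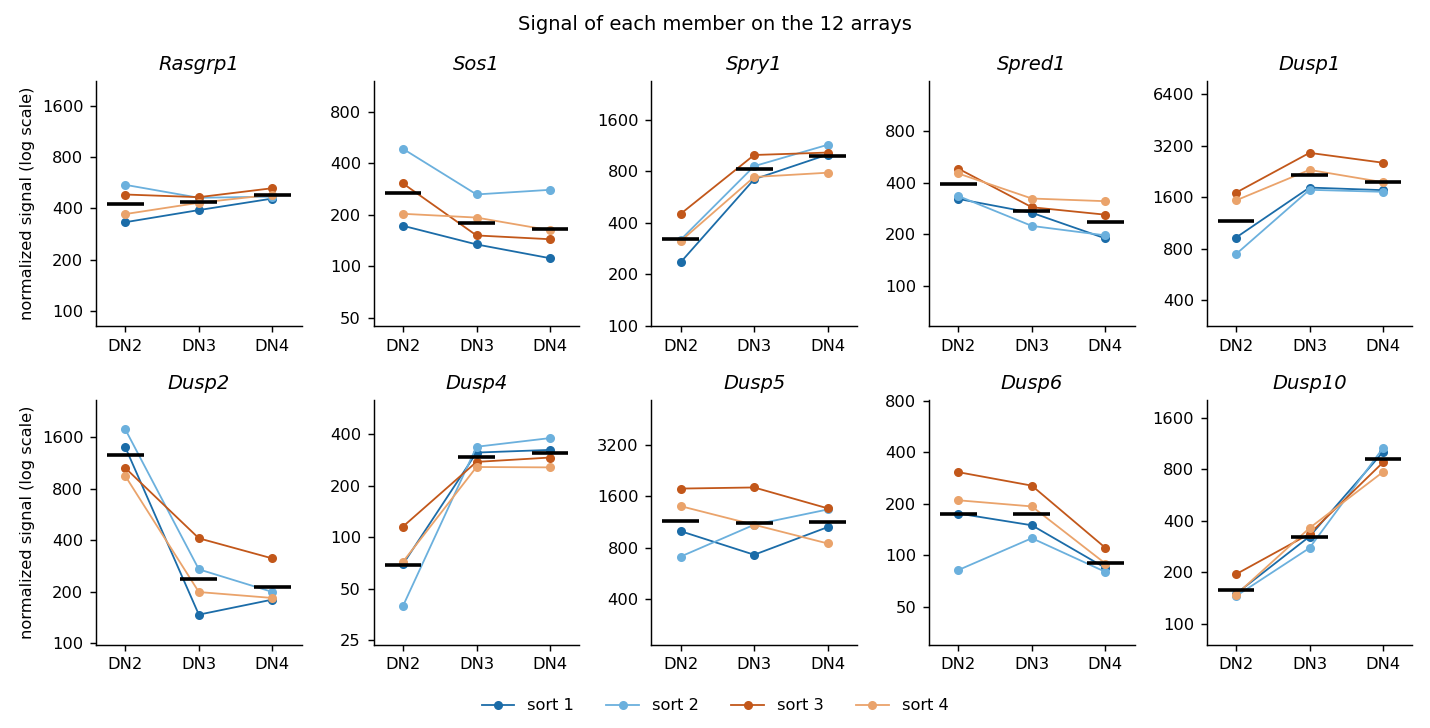
Normalized signal of the brightest probe set of each member on the 12 arrays, on a log axis that spans the same fold in each panel, with the sorts marked and a black bar for the geometric mean of the 4 arrays of a stage. Dusp2 lies highest in DN2, Dusp4 and Spry1 step up between DN2 and DN3, and Dusp10 steps up at both transitions.

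The inhibitors Spry1 and Spred1 changed in opposite directions between DN2 and DN4. Spry1, a Sprouty protein that blocks the route from receptors to ERK and is induced by it, had signals of 235, 318.5, 451 and 313 in DN2, 719, 858, 996.5 and 741 in DN3, and 1003, 1143, 1029.6 and 785 in DN4. Every DN3 and DN4 array lay above every DN2 array. Spry1 rose 2.53-fold from DN2 to DN3 (1.34 ± 0.19 on the log2 scale, limma adjusted p = 0.00076, higher in 4 of 4 sorts) and was 3.02-fold higher in DN4 than in DN2 (1.60 ± 0.19, adjusted p = 6.39e-05). Between DN3 and DN4 the difference was 0.25 ± 0.19 (adjusted p = 0.392). Within sorts 3 and 4 alone the first rise was 1.19 with an adjusted p of 0.0876, against 1.48 and 0.0364 within sorts 1 and 2.

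Spred1, a membrane protein that brings the Ras GTPase-activating protein neurofibromin to Ras, had signals of 321, 334, 482 and 452 in DN2, 266, 223, 287 and 323 in DN3, and 189, 196, 259.5 and 311 in DN4. It was lower in every sort at both transitions, and the DN2 and DN4 arrays did not overlap. The fall from DN2 to DN4 was 1.66-fold (-0.73 ± 0.19, limma adjusted p = 0.012), while the single steps were -0.51 ± 0.19 (adjusted p = 0.118) and -0.21 ± 0.19 (adjusted p = 0.482). All 6 Spred1 probe sets bright enough to test were lower in DN4 than in DN2, by -0.66 to -0.86, and 4 of them were called when every probe set was tested. These probe sets share a transcript and are not independent measurements.

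**Figure D3:**
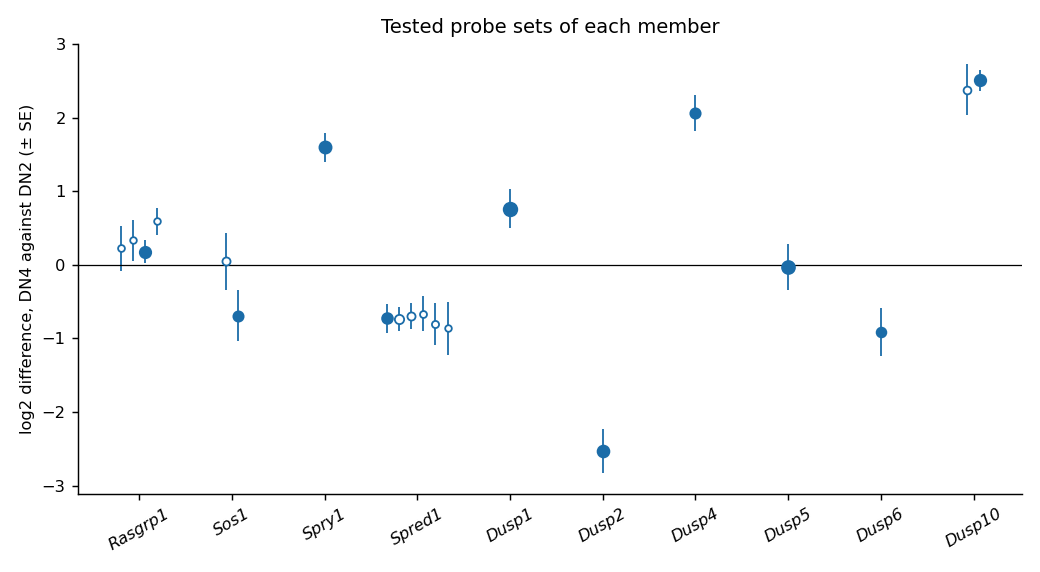
Difference between DN4 and DN2 with its standard error for each tested probe set of every member. Filled points mark the brightest probe set of a gene, open points the others, and point size grows with the mean signal. The 6 Spred1 probe sets all lie below 0 for DN4 against DN2, and both Dusp10 probe sets lie above 0, while the Sos1 probe sets differ in direction.

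Among the phosphatases, Dusp2 and Dusp4 showed opposite steps at the first transition. Dusp2, a nuclear phosphatase of blood cells that acts on ERK and p38, gave 1398.5, 1779, 1058 and 949.7 in DN2, 147, 270.5, 411 and 199 in DN3, and 180.0, 199.5, 313 and 184 in DN4. All DN2 arrays lay far above all others, and DN3 and DN4 overlapped. Dusp2 fell 5.16-fold from DN2 to DN3 (-2.37 ± 0.30, limma adjusted p = 0.000332, lower in 4 of 4 sorts) and differed by -0.16 ± 0.30 between DN3 and DN4 (adjusted p = 0.759). The fall was -3.20 in sort 1 and -1.35 in sort 3, and it was -1.81 within sorts 3 and 4, where it did not pass (adjusted p = 0.0931), against -2.91 within sorts 1 and 2 (adjusted p = 0.017).

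Several bright markers of other blood cells were also lower in DN3 than in DN2, and others were not. The summed signal of 12 measured myeloid markers, 8 of which passed the filter, was 1191 to 2285 in DN2, 433 to 565 in DN3 and 199 to 463 in DN4, with Itgam and Fcgr3 below the filter level on every array. Between DN2 and DN3, 4 of the 8 were called lower and 0 higher by limma (5 lower and 0 higher at an unadjusted p under 0.05), while Csf1r was 25.3 to 40.6 in DN2 and 33.7 to 52.0 in DN3. Of 6 mast cell markers, Cpa3 alone passed the filter, with 2688 to 3721 in DN2 and 46.4 to 200.4 in DN3, while Fcer1a, Ms4a2, Mcpt1 and Mcpt4 lay below the filter level on every array and Mcpt8 on every array of DN2 and DN3. The sum of 5 NK cell markers was 1576 to 1829 in DN2, 409 to 723 in DN3 and 103 to 121 in DN4, so it was lower again in DN4, where Dusp2 was not called against DN3. Most of it came from Nkg7, and Ncr1 was below the filter level on every array. Of the 3 NK markers tested, 2 were lower and 1 (Prf1) was higher in DN3 than in DN2. Their part in the difference of Dusp2 was not tested.

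Dusp4, a nuclear phosphatase that acts on ERK and is induced by it, had signals of 69.5, 39.6, 115 and 71.8 in DN2, 312, 337.5, 275 and 257 in DN3, and 323.5, 379, 292 and 256 in DN4. The DN2 arrays were the lowest without overlap, and the order of the sorts in DN2, with sort 3 highest and sort 2 lowest, was not kept in the later stages. Dusp4 rose 3.99-fold from DN2 to DN3 (2.00 ± 0.24, limma adjusted p = 0.000232, higher in 4 of 4 sorts), and DN4 differed from DN3 by 0.07 ± 0.24 (adjusted p = 0.868). The rise was called under all 25 alternative settings tried, with differences of 1.51 to 2.47.

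Dusp10, which acts on JNK and p38 rather than ERK, was the member with the greatest share of its variation between stages, 97.5% of its sum of squares. Its signals were 149.8, 145, 195 and 148 in DN2, 324, 278, 336 and 363 in DN3, and 1011, 1067, 879 and 773 in DN4. The 3 stages did not overlap. Dusp10 rose 2.01-fold from DN2 to DN3 (1.01 ± 0.14, limma adjusted p = 0.000712) and a further 2.83-fold from DN3 to DN4 (1.50 ± 0.14, adjusted p = 7.19e-05), and was 5.68-fold higher in DN4 than in DN2. Within sorts 3 and 4 the first rise was 1.03 with an adjusted p of 0.0501, and within sorts 1 and 2 it was 0.99 with an adjusted p of 0.0482. The dimmer probe set 1417163_at gave 3.16 to 24.6 in DN2, 14.8 to 40.0 in DN3 and 70.1 to 112.5 in DN4. It was higher in DN4 than in DN3 by 1.71 ± 0.35 when every probe set was tested (adjusted p = 0.00807). The Cd8a and Cd8b1 signals were also higher in DN4, at 121 to 193 and 235 to 415 against at most 37.2 and 30.3 in DN3, although CD8+ cells were depleted and gated out; the part of such cells in the rise of Dusp10 was not tested.

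Dusp6, a cytoplasmic phosphatase specific for ERK, gave 175.5, 82.0, 306 and 209.7 in DN2, 149.8, 126, 255 and 193 in DN3, and 84.4, 80.0, 111 and 89.5 in DN4. The DN4 arrays lay below all DN3 arrays, but DN2 of sort 2 lay within the DN4 range. Dusp6 was lower in DN4 than in DN2 by -0.91 ± 0.33 (limma adjusted p = 0.0484) and than in DN3 by -0.91 ± 0.33 (adjusted p = 0.0795), while DN3 and DN2 differed by -0.00 ± 0.33 (adjusted p = 0.998, 95% interval -0.72 to 0.71). Within sorts 1 and 2 the difference from DN2 was -0.51 (adjusted p = 0.345) and within sorts 3 and 4 it was -1.32 (adjusted p = 0.0268). It was -0.65 without DN2 replicate 3 (adjusted p = 0.13) and -1.26 without DN2 replicate 2 (adjusted p = 0.00289). The call against DN2 was lost under 14 of 25 alternative settings, with differences of -1.38 to -0.51 and adjusted p from 0.00289 to 0.345. That against DN3 was gained under 4, among them the fit without DN2 replicate 2 (adjusted p = 0.0202). With the sort as a block the call against DN2 was kept (limma adjusted p = 0.0055).

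Dusp5, a nuclear phosphatase specific for ERK, showed the least stage difference of the members. Its signals were 998.5, 709, 1772 and 1398.5 in DN2, 727, 1089, 1798.5 and 1088 in DN3, and 1055, 1337, 1358 and 846 in DN4. The stages overlapped throughout, and the stage held 0.191% of its sum of squares. DN4 differed from DN2 by -0.03 ± 0.31 (limma adjusted p = 0.954), with a 95% interval from -0.70 to 0.64, so a change of up to that size was not detectable with 4 arrays a stage.

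Dusp1, an inducible nuclear phosphatase of p38, JNK and ERK, had signals of 929, 743, 1700.4 and 1532 in DN2, 1821, 1767, 2906 and 2311 in DN3, and 1759, 1720.2, 2544 and 1957 in DN4. The DN2 arrays lay below all DN3 and DN4 arrays, with sorts 1 and 2 the lowest of DN2. The rise from DN2 to DN3 was 0.89 ± 0.26 (1.86-fold, limma adjusted p = 0.0474, higher in 4 of 4 sorts), and DN4 was above DN2 by 0.76 ± 0.26 (adjusted p = 0.0401). The first call was lost under 16 of 25 alternative settings (adjusted p from 0.0024 to 0.142) and the other under 9 (0.00184 to 0.252), with differences of 0.68 to 1.08 and 0.48 to 1.04. Leaving out any of 9 single arrays ended the first call, with an adjusted p of 0.122 at most. The exceptions were DN2 replicates 3 and 4 and DN4 replicate 3. These fits left the sort out of the model. With the sort as a block on all arrays, the limma adjusted p was 0.0024 for DN3 against DN2 and 0.00184 for DN4 against DN2.

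Within stages, most of all in DN2, Dusp1 differed between pairs of sorts together with several genes that respond quickly to cell handling. Sorts 3 and 4 exceeded sorts 1 and 2 by 0.95 on the log2 scale for Dusp1 in DN2, by 0.53 in DN3 and by 0.36 in DN4. The AP-1 gene Fos differed by 1.73, 0.35 and 0.29, and its signals were 1333, 1442, 4726 and 4515 in DN2 against 3932 to 5236 in DN3. Junb differed by 2.27, 0.49 and 0.12, and the transcription factor gene Klf4 by 1.60, 0.81 and 0.55. Klf4 and Fos were the genes most like Dusp1 over all arrays, so their shared pattern follows in part from that choice. Egr1 (0.73, 0.36 and 0.015) and Ier2 (0.94, 0.30 and 0.31) also differed most in DN2. Other genes did not follow this course. Hspa1a differed most in DN4 (0.33, 0.67 and 1.02), Hspa1b differed in all stages (1.12, 0.97 and 0.88), and Fosb differed little (0.26, 0.24 and -0.20). In DN2, 12 of 14 genes of a list of handling responses were higher in sorts 3 and 4, with a median of 0.65 beside -0.01 for all genes tested. In DN3 there were 11 of 14 and in DN4 12 of 14, with smaller medians of 0.27 and 0.28. By limma none of the 14 was called between DN2 and DN3, where 11.2% of all genes were called. At an unadjusted p under 0.05 there were 2 higher and 1 lower. Fitted with the sort as a block, 1 of the 14 was called higher and 2 lower, where 20.9% of all genes were called. Within sorts 3 and 4, Dusp1 was higher in DN3 than in DN2 by 0.70 (adjusted p = 0.142), against 1.08 within sorts 1 and 2 (adjusted p = 0.0461). For DN4 against DN2 it was 0.48 within sorts 3 and 4 (adjusted p = 0.148) and 1.04 within sorts 1 and 2 (adjusted p = 0.0184). Control probe sets for both ends of Gapdh, a measure of RNA integrity, also split DN2 in this way. Their log2 ratio of 3' to 5' signal was 1.45 and 1.82 in sorts 1 and 2 of DN2. It was 1.18 and 1.1 in sorts 3 and 4, and 0.876 to 1.46 in DN3 and DN4. The ratio for actin did not split them, at 0.909, 1.1, 1.02 and 0.982 in sorts 1 to 4 of DN2. The parts of cell handling and of RNA integrity in the difference of Dusp1 were not tested.

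**Figure D4:**
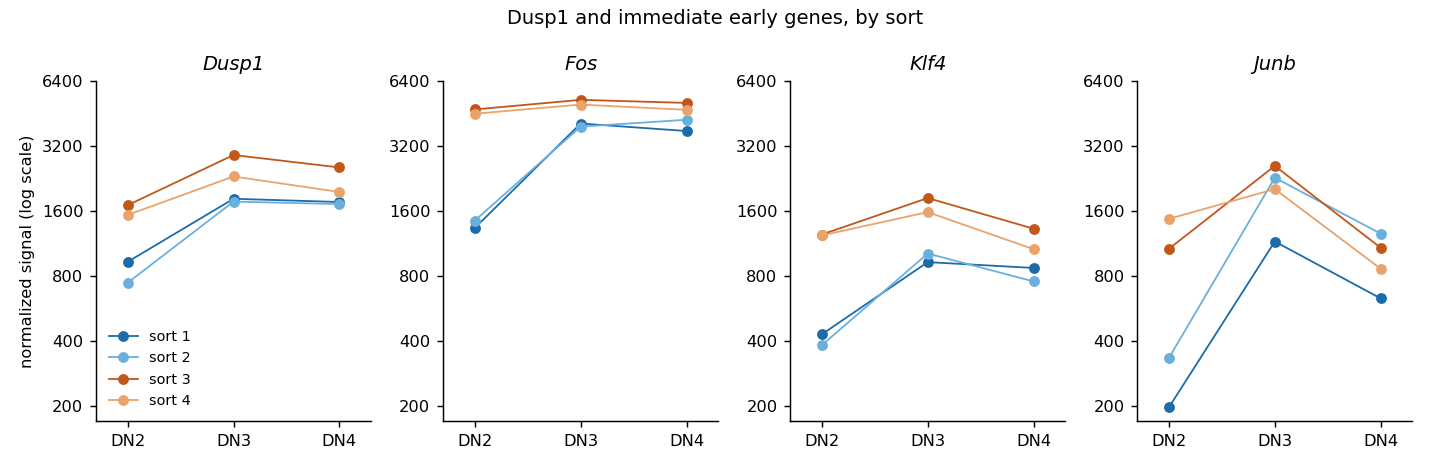
Normalized signal by stage for Dusp1 and for Fos, Klf4 and Junb, with 1 line per sort and a log axis. In DN2 sorts 1 and 2 lie below sorts 3 and 4 for all 4 genes, and their lines draw closer in DN3 and DN4. Klf4 and Fos were the genes most like Dusp1 over all arrays, and not every handling gene follows this course.

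Dusp5 and Dusp6 also differed between these pairs of sorts in DN2, by 0.90 and 1.04. Dusp2 differed the other way, by -0.65 in DN2, and by 0.51 in DN3. The genes whose pattern over the 12 arrays was most like that of Dusp1 were Klf4 and Fos, with a Pearson r of 0.925 and 0.917. For Dusp10 they were Tubb2a, a tubulin gene (r = 0.984), and Igsf3 (0.981), for Dusp4 Gcnt3 (0.971) and Plcxd2 (0.967), for Dusp2 Nrros (0.976) and Pik3cg (0.97), and for Spry1 Rap1gap2 (0.964) and Pik3r5 (0.96). The arrays fall into 3 stages and were normalized together, so these values describe likeness over stages and sorts only.

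DN3 was also set against the mean of DN2 and DN4. Dusp4 was higher in DN3 than this mean by 0.96 ± 0.21 (limma adjusted p = 0.0227) and Dusp2 lower by -1.10 ± 0.26 (adjusted p = 0.0323), the only members called, where 4.93% of all genes were called, 2.77% higher and 2.17% lower. For both genes DN3 and DN4 overlapped and DN2 stood apart, so neither was highest or lowest in DN3 beyond the spread of DN4. Spry1 and Dusp1 were also called higher with the sort as a block (0.54 and 0.51, adjusted p = 0.0237 and 0.0239), giving 3 members higher where 12.3% of all genes were called. Neither Dusp4 nor Dusp2 was called within a pair of sorts: Dusp4 differed by 1.18 in sorts 1 and 2 and 0.74 in sorts 3 and 4 (adjusted p = 0.142 and 0.224), and Dusp2 by -1.42 and -0.78 (0.132 and 0.395). With 1 of DN3 replicates 1, 2 or 3 left out Dusp4 was not called (adjusted p = 0.0529 to 0.0856). Dusp2 was not called without DN2 replicate 1 or DN3 replicate 1, 2 or 4 (0.0544 to 0.106).

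The other genes of the pathway were taken from lists and are given beside the members. The counts stand beside 11.2% of all genes called for DN3 against DN2, 16.2% for DN4 against DN3 and 34.6% for DN4 against DN2. For counts with the sort as a block these shares were 20.9%, 30.2% and 46.8%. The lists were not tested as sets. Of 11 tested genes among other Ras activators and Ras proteins, 1 rose and 4 fell between DN2 and DN3, 0 rose and 2 fell between DN3 and DN4, and 1 was higher and 5 lower in DN4 than in DN2. At an unadjusted limma p under 0.05, 1 was higher in DN4 than in DN3. Fitted with the sort as a block, 1 was higher and 5 lower in DN3 against DN2. There were then 1 higher and 3 lower in DN4 against DN3, and 1 higher and 6 lower in DN4 against DN2. Gab2, an adaptor that brings the phosphatase Shp2 to receptors, fell by 2.33 ± 0.22 on the log2 scale from DN2 to DN3 and by 1.77 ± 0.22 from DN3 to DN4 (adjusted p = 3e-05 and 0.000355), in mean signal from 421 to 77.2 and 18.8. Rras2, a Ras-related GTPase, rose by 0.86 ± 0.13 from DN2 to DN3 (adjusted p = 0.00119), while Rras fell by 1.29 ± 0.30 (adjusted p = 0.0157) and Rasgrf2, another exchange factor, was lower in DN4 than in DN2 by -1.49 ± 0.17 (adjusted p = 4.14e-05). Grb2 was below the mean of the other stages in DN3 by -0.32 ± 0.08 (adjusted p = 0.0321).

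The kinases and scaffolds from Raf to ERK and beyond gave no call. Of 12 tested, 0 were called in any of the 4 comparisons by limma, and at an unadjusted p under 0.05 there were 1 higher and 0 lower in DN3 against DN2, 0 in DN4 against DN3, and 1 higher and 1 lower in DN4 against DN2. With the sort as a block, 2 were higher in DN3 than in DN2, and 2 were higher and 2 lower in DN4 than in DN2. Their median difference was -0.07, -0.07 and -0.02 in the 3 comparisons.

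Of 16 other inhibitors, 1 rose and 1 fell between DN2 and DN3, 2 fell between DN3 and DN4, and 1 was higher and 3 lower in DN4 than in DN2. Rasal1 and Rasa3, which speed the hydrolysis of GTP by Ras, went opposite ways from DN2 to DN3, by 1.92 ± 0.37 and -1.50 ± 0.27 (limma adjusted p = 0.00551 and 0.00364). Rasa4, of the same kind, was lower in DN4 than in DN2 by -2.29 ± 0.30 (adjusted p = 0.000131), and Cblb, a ubiquitin ligase that damps receptor signals, fell by 1.15 ± 0.22 between DN3 and DN4 (adjusted p = 0.00516). Of 5 other MAP kinase phosphatases tested, Dusp22 rose by 0.96 ± 0.27 between DN2 and DN3 (adjusted p = 0.0409) and 0 were called between DN3 and DN4, where 1 was higher and 1 lower at an unadjusted limma p under 0.05. In DN4 against DN2, Dusp22 and Dusp14 were higher (1.16 ± 0.27 and 0.89 ± 0.28, adjusted p = 0.00593 and 0.0272) and Dusp16, which acts on JNK and p38, was lower (-1.15 ± 0.21, adjusted p = 0.00125).

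Dusp10 and Dusp16 act on p38 and JNK, so the kinases of those routes are given too. Of 11 tested, 2 were higher and 3 lower in DN4 than in DN2. Map3k5, which activates both routes, was lower by -1.88 ± 0.21 (limma adjusted p = 4.3e-05), Mapkapk3, a kinase that p38 activates, by -1.34 ± 0.24 (adjusted p = 0.00104), and Map2k6, a kinase of p38, was higher by 0.65 ± 0.17 (adjusted p = 0.0132). Between DN3 and DN4, 0 were called higher and 1 lower, again Map3k5 (-1.42 ± 0.21, adjusted p = 0.00119), and at an unadjusted limma p under 0.05 there were 0 higher and 2 lower. None was called between DN2 and DN3, where 2 were higher and 2 lower at an unadjusted limma p under 0.05.

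Of 16 tested genes known to respond to ERK, 2 rose and 1 fell between DN2 and DN3, 2 rose and 1 fell between DN3 and DN4, and 2 were higher and 3 lower in DN4 than in DN2. Etv5, an ETS factor gene, rose by 1.39 ± 0.24 from DN2 to DN3 (limma adjusted p = 0.00268), as did Egr3, which ERK signals induce in thymocytes (1.30 ± 0.34, adjusted p = 0.0269). Egr3 was dim, at 5.52 to 18.1 in DN2, 21.5 to 46.6 in DN3 and 4.63 to 22.8 in DN4. All its DN2 arrays lay below the filter level of 20.2, so it passed the filter through the later stages. Egr1, of the same family, fell by 0.95 ± 0.28 from DN3 to DN4 (adjusted p = 0.0377), while Id3, an inhibitor of E proteins, rose by 1.13 ± 0.27 (adjusted p = 0.0142). Ier3 fell by 2.89 ± 0.46 from DN2 to DN3 (adjusted p = 0.00166). The list held changes in both directions at each step, as the members did at the first.

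**Figure D5:**
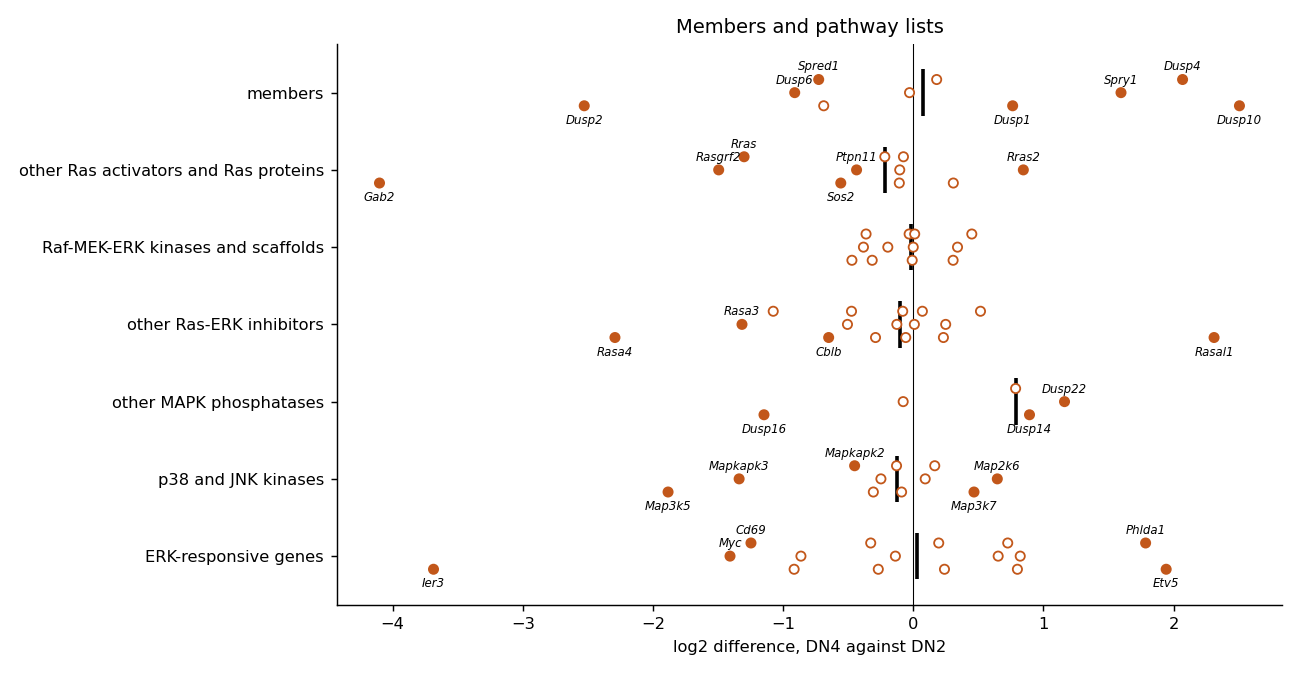
Difference between DN4 and DN2 on the log2 scale for every tested gene among the members and in each list of pathway genes, 1 point per gene; filled points were called at an adjusted p under 0.05 and the black line is the median of the list. The Raf, MEK and ERK kinases hold no filled point, while the members hold 7.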

How the data were processed

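RNA of 12 sorted samples was amplified with a kit that makes cDNA in repeated rounds and hybridised to Affymetrix arrays, per the labels' protocols. The authors deposited linear intensity values, 1 per probe set, computed with GCOS per the submitters' processing notes. Which algorithm and scaling target GCOS used is not given in the sources used here. The 64 control probe sets were dropped. Symbols came from the platform annotation, updated through Entrez identifiers, and probe sets with several symbols (932) were not used. Signals were quantile normalized, the table's 25th percentile (5.59) was added before log2, and the brightest probe set on average stood for each gene. Genes were kept if above the table's median (signal 20.2) on at least 4 arrays.

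The stage means were estimated over 12 arrays by limma 3.58.1 (R 4.3.3) with two-sided eBayes tests and Benjamini-Hochberg adjustment over 11174 genes in each of 4 comparisons, a procedure tested on simulated data. The number of arrays limits the precision. Same-numbered arrays share a cell source per the labels. What remained after subtracting stage means correlated at 0.253 to 0.345 between them, against at most 0.108 between sorts. A fit with the sort as a block is therefore given beside members whose call it changes. It is also given beside counts of the pathway and handling lists that it changes. Correlations between arrays of a stage were 0.935 to 0.949, and 0 pairs were identical. Figures were drawn with matplotlib 3.10.9.

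The members and lists were chosen with earlier results of these data known. Genes named beside the members were, for each pathway list and comparison, up to 3 called genes of smallest adjusted p with the same direction in all 4 sorts, the 3 genes most like each called member, the sort markers, and up to 3 of the brightest genes of a marker list; not all are printed, and Fos, Junb and Klf4 are given in detail because they were most like Dusp1 or belong to the handling list. Marker lists of mature alpha-beta T, gamma-delta T and B cells were measured too. Alternatives were that block, no normalization, median centring, an offset of 1, a floor, no filter, a stricter filter (75th percentile), each probe set tested singly, probe sets averaged, only probe sets specific to a transcript, trend and robust eBayes, each pair of sorts, and each array left out.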

Additional observations from a re-analysis of the deposited data

Results flagged for a closer look

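In 30 groups of 4 arrays (10 members in 3 stages) 1 value stood apart by Dixon's criterion, which chance alone meets in about 1 in 20 groups. Dusp10 in DN2 was 7.65 on the log2 scale in sort 3, a signal of 195, while the nearest of the other DN2 arrays was 7.28 and the lowest 7.24. This array still lay below every DN3 array, the lowest of which had a signal of 278.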

How the results depend on the processing

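The calls of Dusp4 between DN2 and DN3, of Dusp10 between DN3 and DN4, and of Spry1, Spred1, Dusp2, Dusp4 and Dusp10 between DN2 and DN4 held under all 25 alternatives, while those of Dusp1 and Dusp6 did not, as given above. In what follows the comparisons are DN3 against DN2, DN4 against DN3, DN4 against DN2 and DN3 against the mean of the others, and the causes were not tested. With the sort as a replicate block, 20.9%, 30.2% and 12.3% of genes were called in the first, second and last, 3 members were lower in the first, 1 lower in the second and 3 higher in the last. Without normalization, 5.38% and 25.7% of genes were called in the first and second, 2 members were lower in the second, and 2 were higher and 0 lower in the last. Without normalization 1.39% of the genes called between DN3 and DN4 and 9.46% of those between DN2 and DN4 were higher, against 44.2% and 51.8%, and 91.4% of those in the last, against 56.1%. With median centring the shares were 54.1% in the first comparison against 42.3%, 26.8% in the second and 76.3% in the last. Without the filter, which adds dim genes to the test, 4.83%, 6.17%, 17.5% and 1.53% of genes were called, and 0 members were higher or lower in the last. With the mean of all probe sets, and with trend and robust eBayes, 1 member was lower in the second; the latter gave 2 higher in the last. Within sorts 1 and 2, with fewer arrays, 2.2%, 1.93%, 16.1% and 0.0441% of genes were called and 0 members in the last. Within sorts 3 and 4 these were 3.68%, 1.73%, 19.4% and 0.305%, with 1 member higher and 0 lower in the first and 0 in the last.

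Signs changed only for differences that were not called. Without normalization these were Dusp5 and Dusp6 in the first (0.10 and 0.10), Dusp4 (-0.47), Dusp5 (-0.40), Rasgrp1 (-0.36) and Spry1 (-0.18) in the second and Rasgrp1 in the third (-0.19). With median centring they were Dusp5 and Dusp6 in the first (0.064 and 0.064), Dusp4 in the second (-0.061) and Dusp5 in the third (0.078). Dusp6 in the first was 0.0019 with an offset of 1 and 0.0027 with a floor. With the mean of probe sets, Rasgrp1 was -0.023 and Sos1 0.0094 in the first. Within sorts 1 and 2, Dusp5, Dusp6 and Rasgrp1 were 0.078, 0.18 and -0.012 in the first and Dusp5 0.49 in the third; within sorts 3 and 4 Dusp5 was -0.39 in the second.

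With each array left out in turn, in the first comparison Dusp5 ranged from -0.28 to 0.16, Dusp6 from -0.35 to 0.26 and Rasgrp1 from -0.080 to 0.16. In the second, Dusp1 ranged from -0.25 to 0.013, Dusp2 from -0.39 to 0.094, Dusp4 from -0.024 to 0.16, Dusp5 from -0.19 to 0.24 and Sos1 from -0.37 to 0.061. In the third, Dusp5 ranged from -0.26 to 0.18. Members lower in the second numbered 0 to 1, and in the last 0 to 2 were higher and 0 to 1 lower. The share of genes called ranged from 10.2% (without DN3 replicate 2) to 17.4% in the second and from 2.31% (without DN3 replicate 2) to 4.96% in the last. With 4 arrays a stage, differences the size of the intervals of Rasgrp1 and Dusp5 are not resolved.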

Other observations

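The summed signal of 7 measured B cell markers was 359 to 459 in DN2, 283 to 406 in DN3 and 245.5 to 397 in DN4, with Ebf1 below the filter level on every array. Of gamma-delta T cell markers, 3 were measured, with sums of 552 to 1155 in DN2 and 419.8 to 717 in DN4. The sum of 8 measured markers of mature alpha-beta T cells was 1699 to 1887 in DN2 and 1214.5 to 1364 in DN4, but its 7 tested members had a median difference of 0.20 on the log2 scale in that comparison, with 2 higher and 2 lower by limma. Cd8a was 3.04 to 16.5 in DN2 and 121 to 193 in DN4, and Cd4 was below the filter level on every array.

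In the handling list, 3 of 14 genes were lower in DN4 than in DN2 and 0 higher by limma, against 34.6% of all genes called; 1 was higher and 5 lower at an unadjusted p under 0.05. Jun, an AP-1 subunit gene, was lower by -1.65 ± 0.37 on the log2 scale (limma adjusted p = 0.00446), Socs3, an inhibitor of cytokine receptors, by -1.41 ± 0.50 (adjusted p = 0.0468), and Nfkbia, the inhibitor of NF-kappaB, by -0.52 ± 0.17 (adjusted p = 0.0348). Dusp1 was higher in the same comparison, as given above.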
